A study of Mus musculus with 6 samples.

Results

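The 40 genes described here encode molecular chaperones, their helpers and the regulators of the unfolded protein response, read in RNA sequencing of interstitial macrophages, which live in the lung wall outside the air spaces. They were chosen by name: 17 cytosolic chaperones and co-chaperones, the heat shock factor Hsf1, 3 mitochondrial chaperones, 14 chaperones and folding enzymes of the endoplasmic reticulum (ER), and 5 sensors and factors of the unfolded protein response (UPR). All 40 were found among the 21965 genes of the count table, and all 40 passed the filter on low counts that left 12305 genes to be tested. The cells came from lungs of C57Bl/6 mice aged 6 to 8 weeks, kept free of specific pathogens. The mice had been injected into the peritoneum with 1 mg of WGP, a β-glucan preparation, or with phosphate-buffered saline (PBS), with a treatment given as 6 days and lungs taken on day 7. The cells were stained with fluorochrome-labelled antibodies, which the labels do not name, and 3 PBS and 3 WGP libraries, numbered 1 to 3 in each group, were made from polyA-selected RNA. The study asks what training of innate immunity with β-glucan does to the macrophages of the lung before metastases form, and the comparison of WGP with PBS is the 1 comparison these libraries allow.

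Chaperones bind proteins that are not yet folded or have lost their fold. In the cytosol the Hsp70 proteins take up a client handed over by J-proteins, Hsp110 proteins exchange the nucleotide, and Hsp90 with its co-chaperones finishes many kinases and receptors. The transcription factor HSF1 is held inactive by chaperones and, when unfolded protein draws them away, binds heat shock elements and raises their genes. The mitochondrial matrix has its own Hsp70 and the chaperonin of Hsp60 and Hsp10. In the ER, BiP, GRP94, the lectins calnexin and calreticulin and the disulfide isomerases fold secreted and membrane proteins, and the sensors IRE1α, PERK and ATF6 adjust their number to the load through XBP1, ATF4 and cleaved ATF6. Macrophages secrete and display many proteins, and stress chaperones also rise when tissue cells are warmed or handled.

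The promoters were searched for the binding letters of these factors, and the matches are printed before the values. RefSeq promoter windows of the GRCm38.p6 build were found for 32 of the 40 members, and the 250 bases before each start site were searched on both strands for exact matches. Variants of the letters and sites further away were not searched, so a gene without a match may still have a site. The unfolded protein response element, TGACGTGG, and an ATF4-type element, TGATGCAA, were in no member with a window and in 0.603% and 0.918% of 27025 genes. The ER stress response element, CCAAT followed by CCACG with 9 bases of any kind between, which ATF6 binds together with the CCAAT factor NF-Y, was in the window of 6 of 12 ER members (50%), against 0.13% of 27025 genes. It was in none of the 14 cytosolic, 2 mitochondrial and 4 UPR members that had a window. The 6 stretches read 5′ to 3′ on the strand of the gene, with the element in capitals; in Calr and in the second copy of Hsp90b1 it lies on the other strand.
Hspa5 (chr2:34772013-34772055, plus strand): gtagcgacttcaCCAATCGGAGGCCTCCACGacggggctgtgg
Hsp90b1 (chr10:86705521-86705668, minus strand): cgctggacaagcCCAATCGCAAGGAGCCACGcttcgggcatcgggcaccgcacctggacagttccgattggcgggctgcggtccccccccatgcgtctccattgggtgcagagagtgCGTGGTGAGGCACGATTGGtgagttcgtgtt
Calr (chr8:84847063-84847105, minus strand): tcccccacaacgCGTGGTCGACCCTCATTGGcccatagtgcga
Canx (chr11:50325788-50325830, minus strand): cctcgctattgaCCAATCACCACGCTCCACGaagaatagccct
Dnajc3 (chr14:118937815-118937857, plus strand): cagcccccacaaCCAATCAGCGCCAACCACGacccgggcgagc
Pdia6 (chr12:17266479-17266521, plus strand): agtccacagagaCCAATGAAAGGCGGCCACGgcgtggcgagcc

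The heat shock element was searched as 3 alternating units, GAA, TTC and GAA, with 2 bases of any kind between neighbours, and was present in 0.514% of all genes and in Hspd1, Hspe1 and Dnajb6. Hspd1 and Hspe1 stand head to head and share the same bases, in which 2 overlapping copies run together. A pair of units, TTCNNGAA or GAANNTTC, a search added after the longer one, overlaps with the element and was in 7 of 14 cytosolic members (50%), both mitochondrial members with a window, none of the 12 ER and 4 UPR members and 14.5% of all genes. The cytosolic ones were Hspa1a, Hspa1b, Hsph1, Hspb1, Dnaja1, Dnajb4 and Dnajb6. The stretch around the pair is the same in Hspa1a and Hspa1b. Capitals mark the element in the first 2 lines and the pair in the others.
Hspd1 (chr1:55088047-55088088, minus strand): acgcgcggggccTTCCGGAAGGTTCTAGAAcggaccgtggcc
Dnajb6 (chr5:29735840-29735876, plus strand): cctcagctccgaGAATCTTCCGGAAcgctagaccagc
Hspa1a (chr17:34972241-34972272, minus strand): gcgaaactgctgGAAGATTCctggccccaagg
Hspa1b (chr17:34959323-34959354, minus strand): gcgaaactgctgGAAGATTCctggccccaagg
Hsph1 (chr5:149636350-149636381, minus strand): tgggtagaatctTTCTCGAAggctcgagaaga
Hspb1 (chr5:135887790-135887841, plus strand): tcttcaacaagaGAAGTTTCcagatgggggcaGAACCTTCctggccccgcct

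The libraries held between 18254678 and 20346517 counts, and levels are given as CPM, the counts of a gene relative to its library's total as scaled by TMM. Pairs of libraries of 1 group had a correlation of log2 CPM over genes of 0.964 to 0.983, and pairs across the groups 0.921 to 0.954. Y-linked transcripts, which only male cells carry, summed to 112, 179 and 9.79 CPM in PBS replicates 1, 2 and 3 and to 205 to 227 CPM in the WGP libraries. The PBS libraries thus differed in a way the labels, which do not state the sex of the mice, do not give. Every WGP library also lay above every PBS library, so this level went in part with the treatment. A fit with it as a covariate is among the alternatives below. Of the 18 listed interstitial macrophage genes 6 fell (33.3%) and 3 rose (16.7%), beside 15.7% and 15.2% of all genes tested. Mertk, a receptor for dying cells, averaged 166 ± 36.9 CPM after PBS and 20.6 ± 3.72 CPM after WGP (SD, n = 3; log2 fold change -3.01 ± 0.21), and the mannose receptor Mrc1 841 ± 112 and 199 ± 79.4 CPM (-2.08 ± 0.33), while Fcgr1 (1.03 ± 0.11) and Cx3cr1 (0.83 ± 0.20) rose and Cd68 (-0.07 ± 0.06) and Adgre1 (-0.07 ± 0.09) did not pass. The list summed to 18623 to 20362 CPM after PBS and 13014 to 14478 CPM after WGP, of which Cd74 alone gave 9073 and 5063 CPM on average; what these shifts in identity genes contribute to the chaperone values was not tested. How many mice gave each library is not stated, so the p-values speak for the spread among the 6 libraries alone, part of which may be technical.

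After WGP, chaperone transcripts of the cytosol, of mitochondria and of the ER were lower, while the transcripts of the ER stress sensors Ern1 and Atf6 were higher. Of the 40 members 31 fell, 2 rose and 7 did not pass (edgeR's quasi-likelihood test, adjusted p under 0.05 over all 12305 genes). Among all genes tested 15.7% fell and 15.2% rose, 31.0% in all; with library sizes alone as the scaling 1236 rose and 2460 fell in place of 1874 and 1935. In 33 members all WGP libraries lay below all PBS libraries, and in 2 above, which was so for 24.9% and 23.2% of all genes, or 48.1% in either direction. The median log2 fold change, WGP over PBS, was -1.01 for cytosolic chaperones, -0.86 for mitochondrial chaperones and -0.66 for ER chaperones, beside -0.02 for all genes. With library sizes alone the median of all genes moved to -0.12 and these medians to -1.11, -0.96 and -0.76. The fall reached 14 of 17 cytosolic, 3 of 3 mitochondrial and 13 of 14 ER chaperones, and none of them rose. Whether the compartments differed from one another was not tested.

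**Figure D1:**
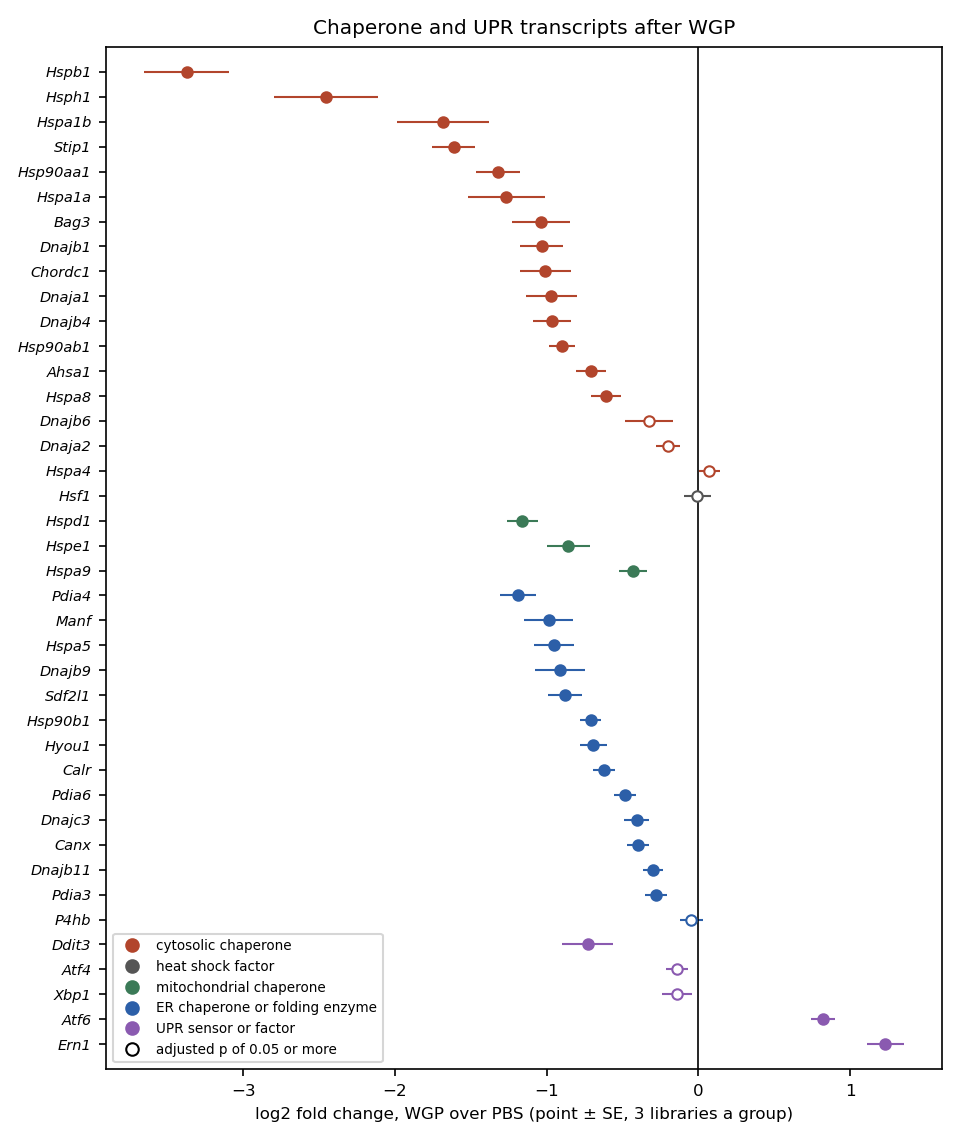
Log2 fold change of each of the 40 members, WGP over PBS (x axis, point ± SE, 3 libraries a group), sorted within compartments. The cytosolic, mitochondrial and ER chaperones lie left of 0 except Hspa4, with Hspb1 lowest, Ern1 and Atf6 lie right of it, and open points are the 7 members that did not pass.

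Among the Hsp70 and Hsp110 genes, the stress-inducible Hspa1a and Hspa1b had lower levels after WGP, and so had the constitutive Hspa8. Hspa1b (ENSMUSG00000090877, chromosome 17, 34956436 to 34959238) stood at 909.995, 1403 and 825 CPM in PBS replicates 1, 2 and 3 and 284, 429 and 264 CPM in WGP replicates 1, 2 and 3. Hspa1a (ENSMUSG00000091971, chromosome 17, 34969190 to 34972156) stood at 804, 1121 and 737 CPM in PBS replicates 1, 2 and 3 and 297, 479 and 331 CPM in WGP replicates 1, 2 and 3. PBS replicate 2 was the highest library in both, and even the highest WGP library lay below the lowest PBS library. The log2 fold changes were -1.68 ± 0.31, adjusted p = 0.0143 for Hspa1b and -1.27 ± 0.25, adjusted p = 0.0163 for Hspa1a. These genes are near-identical copies: of all 50-base words in their GENCODE transcripts, 62.3% of those of Hspa1b and 58.8% of those of Hspa1a occur in both, so reads between them may be shared or lost in counting. Added up, they stood at 1714, 2524 and 1562 CPM after PBS and 580.1, 907 and 595 CPM after WGP, which is -1.48 ± 0.28 on the log2 scale (adjusted p = 0.0149). Hspa1a alone no longer passed without WGP replicate 3 (adjusted p = 0.0527). Both missed the threshold without PBS replicates 1 and 3 (0.0780 for Hspa1a and 0.0585 for Hspa1b), an alternative chosen after the data were seen that leaves 1 PBS library.

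Hspa8 encodes Hsc70, the Hsp70 that cells make at all times. Its level was 2319, 2895 and 2239 CPM in PBS replicates 1, 2 and 3 and 1604, 1668 and 1613 CPM in WGP replicates 1, 2 and 3, and the WGP libraries lay close together. The fall was smaller in size, -0.61 ± 0.10, adjusted p = 0.000962. Hsph1, which encodes the Hsp110 nucleotide exchange factor, stood at 310.4, 514 and 273 CPM after PBS and 49.9, 82.7 and 67.2 CPM after WGP. Its PBS libraries spread 1.88-fold, the widest PBS spread of any member, yet the highest WGP library lay below the lowest of them (-2.46 ± 0.34, adjusted p = 0.00654). Hspa4, another Hsp110, was the exception with 178, 175 and 169 CPM after PBS and 181, 174 and 192 CPM after WGP, where the groups overlapped (0.07 ± 0.07, adjusted p = 0.479). Per length, Hspa1a and Hspa1b together were 1.11, 1.31 and 1.04 times Hspa8 in PBS replicates 1, 2 and 3 and 0.539, 0.81 and 0.549 times Hspa8 in the WGP libraries. This ratio was lower in every WGP library than in every PBS library, a log2 difference of -0.88. It had p = 0.1 in an exact two-sided permutation test, the smallest p that 3 against 3 libraries allow. The lengths cover all annotated exons of a gene, and reads shared by Hspa1a and Hspa1b may be lost, so the size of the ratio itself is uncertain.

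**Figure D2:**
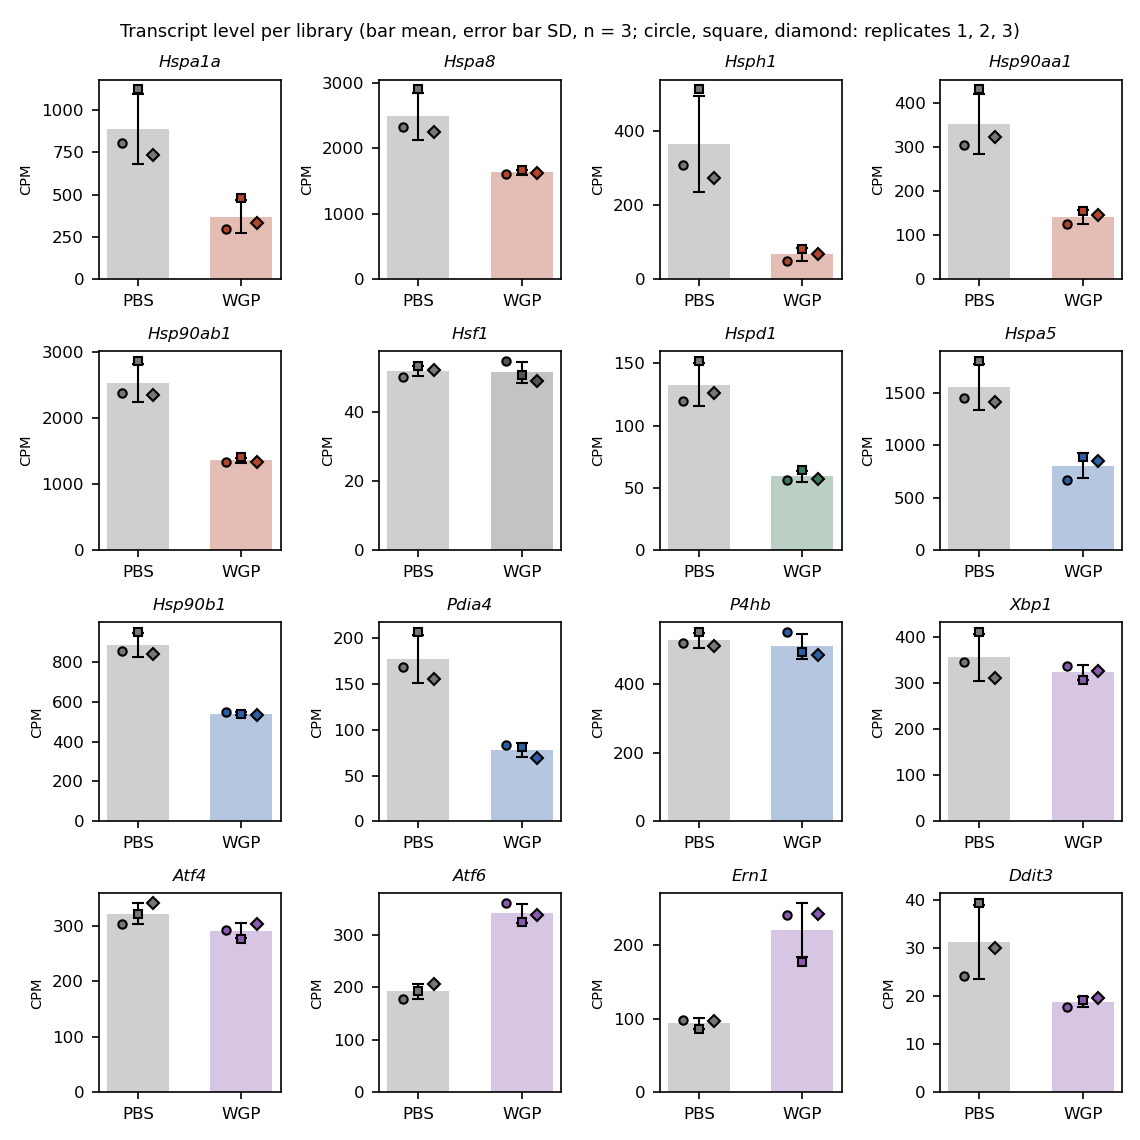
CPM of 16 members in each library (bars are means of 3 libraries, error bars SD, circles, squares and diamonds replicates 1, 2 and 3; each panel has its own axis from 0). The chaperones from Hspa1a to Pdia4, other than Hsf1, which is no chaperone, have all WGP points below all PBS points, P4hb, Xbp1 and Atf4 overlap between groups, and Atf6 and Ern1 have all WGP points above.

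All 5 genes of the Hsp90 group fell. Hsp90ab1, the constitutive cytosolic Hsp90, had the highest level of all members per length of annotated exons. It was counted at 2379.8, 2876 and 2355 CPM in PBS replicates 1, 2 and 3 and 1345, 1407 and 1333 CPM in WGP replicates 1, 2 and 3. After WGP the 3 libraries agreed within 1.06-fold, well under the lowest PBS library (-0.90 ± 0.09, adjusted p = 6.28e-05). The stress-inducible Hsp90aa1 stood at 305, 432 and 323 CPM after PBS and 124, 155 and 145 CPM after WGP, a log2 fold change of -1.32 ± 0.14, adjusted p = 0.000428. Per length it reached 0.0977, 0.115 and 0.105 of the level of Hsp90ab1 in PBS replicates 1, 2 and 3 and 0.0705, 0.084 and 0.0831 in WGP replicates 1, 2 and 3. That log2 difference of -0.42 also had p = 0.1 (exact two-sided permutation test), and the Benjamini-Hochberg value over the 2 ratios computed is the same. Stip1, which encodes Hop, the adaptor that holds Hsp70 and Hsp90 together, stood at 229.9, 297 and 228 CPM after PBS and 69.6, 94.7 and 82.1 CPM after WGP. It had a larger fold change than either Hsp90 gene (-1.61 ± 0.14, adjusted p = 0.000123), a difference that was not tested. Ahsa1, which encodes the activator of the Hsp90 ATPase, and Chordc1, an Hsp90-binding protein, fell too (log2 fold changes -0.71 ± 0.10 and -1.01 ± 0.17).

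Of the J-proteins, which deliver clients to Hsp70, Dnajb1, Dnaja1 and Dnajb4 fell. Dnajb1, the heat-inducible Hsp40, stood at 219, 251 and 189 CPM in PBS replicates 1, 2 and 3 and 89.1, 125 and 108 CPM in WGP replicates 1, 2 and 3 (-1.03 ± 0.14, adjusted p = 0.00111). Dnajb4 was much lower but had narrow groups, 32.02, 32.2 and 29.03 CPM after PBS and 16.3, 14.6 and 16.8 CPM after WGP (-0.97 ± 0.12, adjusted p = 0.000272). Dnaja1 stood at 187, 233 and 168 CPM after PBS and 79.4, 109.6 and 111 CPM after WGP (-0.97 ± 0.17, adjusted p = 0.00504), and 608 bases of its exons lie under exons of Smu1 on the other strand, whose reads cannot be told apart from its own unless counting used the strand. All 3 had every WGP library below every PBS library. Dnaja2 and Dnajb6 had that order as well but did not pass, with log2 fold changes of -0.20 ± 0.08, adjusted p = 0.0798 for Dnaja2 and -0.32 ± 0.16, adjusted p = 0.146 for Dnajb6. Dnaja2 passed as lower with upper quartile scaling (adjusted p = 0.0354), with library sizes alone (0.0168) or without WGP replicate 2 (0.026).

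Bag3, which couples Hsp70 to autophagy and to small heat shock proteins, stood at 122, 194 and 121 CPM after PBS and 72.1, 71.98 and 68.1 CPM after WGP. PBS replicate 2 was the highest again, and the WGP libraries differed little (-1.04 ± 0.19, adjusted p = 0.00713). Hspb1, the small heat shock protein Hsp27, had the largest fold change of all members. It was counted at 13.9, 21.9 and 12.4 CPM in PBS replicates 1, 2 and 3 and 1.74, 1.53 and 1.37 CPM in WGP replicates 1, 2 and 3, which is 287, 422 and 262 reads against 31, 29 and 25. The log2 fold change was -3.37 ± 0.28, adjusted p = 3e-05. Small heat shock proteins are abundant in epithelial, endothelial and muscle cells. The summed markers of epithelial, of endothelial and of fibroblast and smooth muscle cells were lower in every WGP library than in every PBS library. Of the epithelial markers 11 of 13 tested passed as lower (84.6%), and of the endothelial markers 11 of 13 (84.6%). Of the fibroblast and smooth muscle markers 3 of 13 did (23.1%), beside 15.7% of all genes tested. The part of such cells in the Hspb1 value was not tested.

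Hsf1, the factor that drives these genes under stress, did not follow them. Its transcript stood at 50.1, 53.04 and 51.9 CPM in PBS replicates 1, 2 and 3 and 54.7, 50.7 and 48.8 CPM in WGP replicates 1, 2 and 3, the groups overlapped, and the log2 fold change was -0.01 ± 0.09, adjusted p = 0.955. The transcript level says nothing of the activity of HSF1, which is set on the protein.

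In mitochondria, Hspd1 and Hspe1, which encode the 2 parts of the chaperonin, Hsp60 and Hsp10, fell together. Hspd1 (ENSMUSG00000025980, chromosome 1, 55077835 to 55088243) stood at 119.7, 152 and 126 CPM in PBS replicates 1, 2 and 3 and 56.4, 64.5 and 57.2 CPM in WGP replicates 1, 2 and 3. The log2 fold change was -1.16 ± 0.10, adjusted p = 4e-05. Hspe1 (ENSMUSG00000073676, chromosome 1, 55088132 to 55091307) stood at 44.4, 58.9 and 41.96 CPM after PBS and 29.3, 23.7 and 27.1 CPM after WGP (-0.86 ± 0.14, adjusted p = 0.00136). The 2 genes share the promoter stretch printed above, and 112 bases of their exons overlap on opposite strands. Unless counting used the strand, a few reads there may be lost or given to the wrong gene. Hspa9, which encodes mortalin, the Hsp70 of the matrix, fell by less: 138, 151 and 119.5 CPM after PBS and 97.3, 103 and 102 CPM after WGP (-0.43 ± 0.09, adjusted p = 0.00461). In all 3 genes every WGP library lay below every PBS library, with PBS replicate 2 highest.

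The ER chaperones fell as a group, from those of the Hsp70 and Hsp90 kind to the lectins. Hspa5, which encodes BiP, the ER Hsp70 that also holds the UPR sensors inactive, stood at 1449, 1806 and 1415 CPM in PBS replicates 1, 2 and 3 and 671, 890.1 and 854 CPM in WGP replicates 1, 2 and 3. Its log2 fold change was -0.95 ± 0.13, adjusted p = 0.000903. Hsp90b1, which encodes GRP94, the ER Hsp90, stood at 857, 951 and 841 CPM after PBS and 547, 536 and 536 CPM after WGP. The WGP libraries were within 1.02-fold of each other, and the fall was -0.71 ± 0.07, adjusted p = 7.55e-05. Hyou1, the ER Hsp110 that serves BiP, stood at 242, 281 and 223 CPM after PBS and 148, 157 and 156 CPM after WGP (-0.69 ± 0.09, adjusted p = 0.000284), and Sdf2l1, a partner of BiP and its J-proteins, at 61.8, 73.3 and 60.5 CPM after PBS and 39.96, 33.5 and 32.7 CPM after WGP (-0.88 ± 0.11, adjusted p = 0.000298). In all 4 genes the groups did not overlap.

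The remaining genes of the BiP system fell as well. Manf, a secreted ER stress protein that binds BiP, had a log2 fold change of -0.99 ± 0.16, though its exons overlap those of Rbm15b and Dcaf1. Among the J-proteins of the ER, Dnajb9, a partner of BiP in restraining IRE1α and in degradation, fell by more (-0.91 ± 0.16) than Dnajc3 (-0.41 ± 0.08), known as an inhibitor of PERK, and Dnajb11 (-0.30 ± 0.07), without a test of that order. Dnajb11 no longer passed without PBS replicates 1 and 3 (adjusted p = 0.0672). Of the calcium-binding lectins that hold glycoproteins until they are folded, calreticulin (Calr) stood at 1036, 1090.1 and 996 CPM in PBS replicates 1, 2 and 3 and 684, 704 and 637 CPM in WGP replicates 1, 2 and 3. Its log2 fold change was -0.62 ± 0.07, adjusted p = 0.000144. Calnexin (Canx), its membrane-bound relative, stood at 529, 557 and 507 CPM after PBS and 424, 379 and 405 CPM after WGP (-0.40 ± 0.07, adjusted p = 0.00206).

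The disulfide isomerases, which form and reshuffle the disulfide bonds of secreted proteins, did not move alike. Pdia4, which encodes ERp72, had the largest fold change of all ER members, with 169, 207 and 156 CPM in PBS replicates 1, 2 and 3 and 83.1, 81.4 and 68.9 CPM in WGP replicates 1, 2 and 3. The highest WGP library lay well below the lowest PBS library (-1.19 ± 0.12, adjusted p = 9.46e-05). Pdia6 stood at 246, 278 and 246 CPM after PBS and 186, 183 and 181 CPM after WGP (-0.48 ± 0.07, adjusted p = 0.00071). Pdia3, the ERp57 that works with calnexin and calreticulin, stood at 530.3, 560.1 and 545 CPM after PBS and 486, 438 and 424 CPM after WGP. It fell by less than Pdia4 and Pdia6 (-0.28 ± 0.07, adjusted p = 0.0143), an order that was not tested. Pdia3 did not pass without WGP replicate 3 (adjusted p = 0.0655) or without PBS replicates 1 and 3 (0.0857). P4hb, the classical protein disulfide isomerase and the one with the highest level per length, stood at 519, 553 and 511 CPM after PBS and 553, 494 and 485 CPM after WGP. Its groups overlapped, and it did not pass (-0.05 ± 0.07, adjusted p = 0.67). The 6 ER members with the ER stress response element had a median log2 fold change of -0.55 and a range from -0.95 to -0.40, and the 6 with a window but no match had -0.59 and a range from -1.19 to -0.05. The 7 cytosolic members with the heat shock pair had a median of -1.27, the value of Hspa1a (range from -3.37 to -0.32, 6 of 7 lower). The 7 with a window but no pair had -1.01 (range from -1.61 to 0.07, 5 of 7 lower). Those with the pair include both Hspa1a and Hspa1b, near-identical copies with the same stretch, which are not independent. Neither this split nor that by the ER stress response element was tested.

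The UPR genes moved in both directions: the sensors Ern1 and Atf6 rose, the factors Xbp1 and Atf4 did not pass, and Ddit3 fell. Ern1, which encodes IRE1α, the kinase and RNase that splices Xbp1, stood at 97.7, 85.3 and 97.3 CPM in PBS replicates 1, 2 and 3 and 240.1, 177 and 242 CPM in WGP replicates 1, 2 and 3. Every WGP library lay above every PBS library, and the log2 fold change was 1.23 ± 0.12, adjusted p = 0.000133. Atf6, the sensor that is cut in the Golgi to release a transcription factor, stood at 178, 194 and 207 CPM after PBS and 361, 324 and 338 CPM after WGP. It rose by 0.82 ± 0.08, adjusted p = 5.69e-05, again with no overlap between the groups. Both sensors kept their call in all 18 alternatives tried. PERK, the third sensor, is encoded by Eif2ak3, which is no member and did not pass (0.15 ± 0.09, adjusted p = 0.266).

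Xbp1, whose spliced form drives ER chaperone and degradation genes, stood at 345, 411 and 310.2 CPM in PBS replicates 1, 2 and 3 and 337, 306 and 325 CPM in WGP replicates 1, 2 and 3. Its groups overlapped (-0.14 ± 0.10, adjusted p = 0.318). Gene counts do not show how much of it was spliced. It passed as lower when the Y-linked level entered as a covariate (log2 fold change -0.28, adjusted p = 0.0489) and without PBS replicates 1 and 3 (-0.35, adjusted p = 0.0472), which keeps the highest PBS library alone. Atf4, the factor whose translation rises when eIF2α is phosphorylated, stood at 303, 321 and 341 CPM after PBS and 293, 277 and 304 CPM after WGP (-0.14 ± 0.07, adjusted p = 0.163), and passed as lower with library sizes alone (-0.24, adjusted p = 0.0189). Ddit3, which encodes CHOP, the factor tied to cell death in lasting ER stress, stood at 24.2, 39.3 and 30.03 CPM after PBS and 17.6, 19.2 and 19.6 CPM after WGP. PBS replicate 2 was the highest there, and the log2 fold change was -0.73 ± 0.17, adjusted p = 0.00814. The median of the 5 UPR genes was -0.14, and -0.03 without PBS replicate 2.

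Per length of annotated exons, the order of levels after PBS was led by Hsp90ab1 at 846 ± 97.99 RPKM (CPM per kilobase of exon, mean ± SD, n = 3) and Hspa8 at 578 ± 83.3. In CPM alone these genes stood closer, at 2537 and 2484 on average after PBS. The lengths used, 2999 and 4301 bases, cover all annotated exons of a gene and may exceed that of the transcript present, so the order may depend on them. Next came Hspa1b (373 ± 111), Hspa5 (368 ± 51.3), Calr (361 ± 16.5) and Hspa1a (299 ± 69.2), and then Hsp90b1 (219 ± 14.8). Hspa1b, Hspa5 and Calr differed from one another by less than the SD of each. P4hb (184 ± 7.86) and Pdia3 (174 ± 4.75) followed. At the low end were Ern1 (11.4 ± 0.859), Hsf1 (7.28 ± 0.210), Dnajb6 (4.26 ± 0.417) and Dnajb4 (3.55 ± 0.204). After WGP, Hspa1b at 116 ± 32.1 and Hspa1a at 124 ± 32.6 RPKM, each taken alone, stood below P4hb at 178 ± 12.99 RPKM. Reads shared by these near-identical copies may be lost in counting, so the level of each may be too low, and they were not added up here.

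The other genes of these pathways, from lists of 145 genes of which 139 were tested, had 27 members that fell (19.4%) and 11 that rose (7.91%), with a median of -0.08, beside the 15.7% and 15.2% of all genes tested. Of 27 further cytosolic heat shock proteins and co-chaperones 11 fell (40.7%) and 1 rose (3.7%), with a median of -0.27. Fkbp5, the Hsp90-binding immunophilin that glucocorticoids induce, averaged 355 ± 77.04 CPM after PBS and 33.2 ± 3.71 CPM after WGP (log2 fold change -3.42 ± 0.19, adjusted p = 5.6e-05). Its relative Fkbp4 (-1.36 ± 0.12, adjusted p = 6.28e-05), the Hsp70 helper St13 (-0.81 ± 0.09, adjusted p = 0.000108) and the Hsp90 helper Ptges3, or p23 (-0.80 ± 0.13, adjusted p = 0.000996), fell too, while Cdc37, which brings kinases to Hsp90, rose (0.31 ± 0.07). The TRiC chaperonin and prefoldin, which fold actin and tubulin, had 3 of 13 genes lower (23.1%) and none higher (median -0.08). The lower ones were Cct3 (-0.65 ± 0.10), Cct4 (-0.28 ± 0.07) and Cct8 (-0.23 ± 0.07). Of the other heat shock factors and partners Hsbp1 fell (-0.29 ± 0.08), 1 of 3. Of 12 other genes of mitochondrial protein quality control, Clpb fell (-0.62 ± 0.15) and Afg3l2 rose (0.52 ± 0.10), each 8.33% of the list (median -0.07).

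In the ER, 5 of 19 genes of ER-associated degradation fell (26.3%) and none rose (median -0.07). Herpud1, a UPR-induced part of the degradation complex, averaged 223 ± 26.3 CPM after PBS and 131 ± 22.5 CPM after WGP (-0.76 ± 0.13, adjusted p = 0.00286), and the ubiquitin ligase Syvn1 (-0.49 ± 0.12), its partner Sel1l (-0.30 ± 0.08) and Derl2 (-0.46 ± 0.13) fell as well. Of 38 further genes of ER folding and entry 1 fell (2.63%) and 5 rose (13.2%), with a median of -0.02. The share that rose was below the 15.2% of all genes tested. The 1 that fell was Creld2, an ER stress gene (-1.16 ± 0.12, adjusted p = 0.000105), and among those that rose were Sec11c of the signal peptidase (0.32 ± 0.08) and the folding factor Erp29 (0.28 ± 0.07). Of 27 other genes of the UPR and the integrated stress response 5 fell (18.5%) and 4 rose (14.8%), shares close to those of all genes tested, 15.7% and 15.2%. Eif2ak2, the RNA-sensing eIF2α kinase that interferon induces, rose (0.85 ± 0.08, adjusted p = 7.18e-05), as did Atf6b, the relative of Atf6 (0.39 ± 0.07). Shmt2, a mitochondrial serine enzyme that ATF4 raises (-0.997 ± 0.16), and Creb3l2, an ER-anchored factor (-1.003 ± 0.16), fell.

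**Figure D3:**
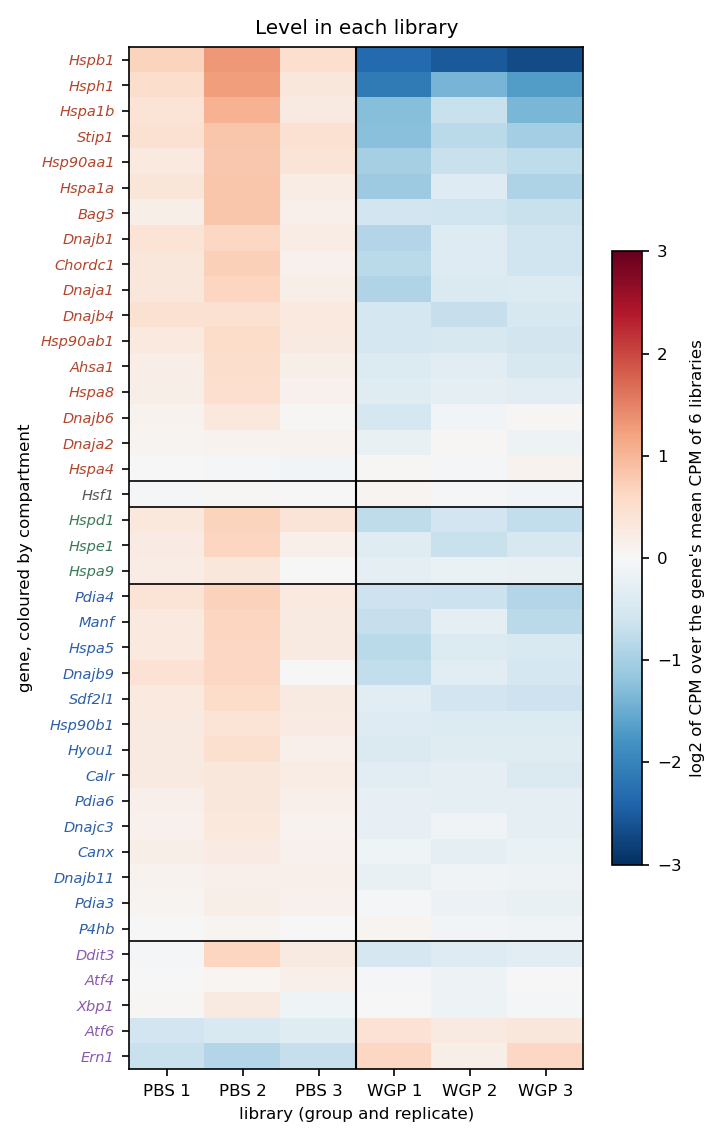
Level of each member (rows, coloured by compartment and sorted by fold change within it) in each library (columns), as log2 of CPM over the gene's mean CPM in the 6 libraries. PBS replicate 2 is the PBS library with the highest level in 36 of 40 rows, and Atf6 and Ern1 are the 2 rows that are higher in all WGP libraries.

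The members also varied together among the PBS libraries. PBS replicate 2 had the highest level of the 3 PBS libraries for 36 of 40 members, among them 16 of 17 cytosolic, 3 of 3 mitochondrial and 14 of 14 ER chaperones, whereas it was highest for 35.6% of all genes tested. Summed over the 17 cytosolic chaperones, the level was 8369, 10866 and 8014 CPM in PBS replicates 1, 2 and 3 and 4449, 5090.4 and 4584 CPM in the WGP libraries. Without PBS replicate 2 the numbers that fell were the same, 14 cytosolic, 3 mitochondrial and 13 ER chaperones, and the medians were -0.84, -0.70 and -0.60. Summed ER chaperones ran at 6125, 6914 and 5962 CPM after PBS and 4142, 4265 and 4102 CPM after WGP. Summed over the 5 UPR genes the level was higher after WGP, at 948 to 1049.98 CPM after PBS and 1103 to 1249 CPM after WGP with Ern1 and Atf6 in the sum.

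**Figure D4:**
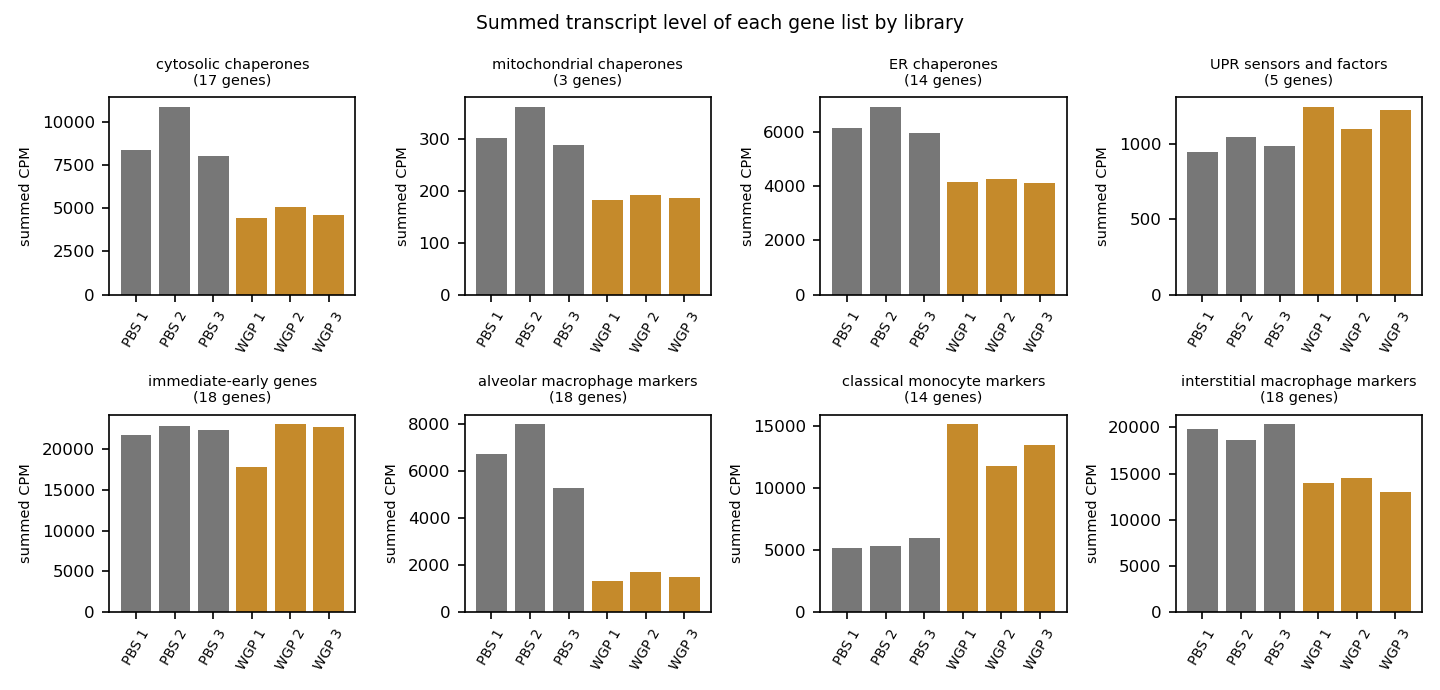
Summed CPM of 4 groups of members and 4 companion lists (y axis) in each of the 6 libraries (x axis, grey PBS, ochre WGP). Cytosolic, mitochondrial and ER sums are lower in every WGP library, as are the alveolar and the interstitial macrophage sums. The UPR and classical monocyte sums are higher in every WGP library, and the immediate-early sum overlaps between groups.

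Summed markers of several other cells also differed between PBS and WGP. The 18 alveolar macrophage markers summed to 6729, 7997 and 5278 CPM in PBS replicates 1, 2 and 3 and to 1312, 1695 and 1492 CPM in WGP replicates 1, 2 and 3, and 16 of them fell. Classical monocyte markers summed to 5155 to 5969.5 CPM after PBS and 11762 to 15125 CPM after WGP, with 12 of 14 higher. Epithelial markers summed to 445 to 928 CPM after PBS and 21.3 to 89.1 CPM after WGP (11 of 13 tested lower) and endothelial markers to 509 to 529 CPM after PBS and 174 to 243 CPM after WGP (11 of 13 lower). Plasma and B cells, of which plasma cells are rich in ER chaperones, gave 283 to 301 CPM after PBS and 188 to 252 CPM after WGP over 12 markers, of which 1 of 11 tested fell (Cd22). Neutrophil (1343 to 2859 CPM after PBS and 1783 to 3347 CPM after WGP), dendritic cell (605 to 746 CPM after PBS and 530.02 to 716 CPM after WGP), T and NK cell (85.95 to 182 CPM after PBS and 30.1 to 95.1 CPM after WGP) and fibroblast and smooth muscle sums (119 to 166 CPM after PBS and 25.1 to 84.8 CPM after WGP) were of 13 or 14 genes each. Of the tested neutrophil markers 2 of 13 rose (15.4%), and of the T and NK cell markers 2 of 13 fell (15.4%). Both shares were close to those of all genes tested, of which 15.2% rose and 15.7% fell. Of the dendritic cell markers 5 of 13 fell (38.5%) and 2 rose (15.4%), with the chemokine Ccl17 (-2.88 ± 0.17) and Cd209a (-1.49 ± 0.11) among those that fell. Of the fibroblast and smooth muscle markers 3 of 13 fell (23.1%). PBS replicate 2 was the highest and PBS replicate 3 the lowest PBS library in the sums of alveolar macrophage, epithelial, endothelial and neutrophil markers, as in that of the cytosolic chaperones. WGP replicate 1 was the lowest WGP library in all of these. It was also the lowest in the sums of plasma and B cell, T and NK cell, dendritic cell and fibroblast and smooth muscle markers. The highest WGP library was replicate 3 for neutrophil markers but replicate 2 for the cytosolic chaperones, and the ER chaperone sum was lowest in WGP replicate 3. The endothelial sums of PBS replicates 1 and 2 were nearly the same, at 528.4 and 529.1 CPM. The other lists had other orders among the PBS libraries. PBS replicate 2 was the lowest PBS library for interstitial macrophage, dendritic cell and T and NK cell markers. PBS replicate 1 was the highest for plasma and B cell markers and the lowest for classical monocyte and for fibroblast and smooth muscle markers. No gene of these lists was at 0 in all libraries. In bulk RNA a lower share of a cell type and less transcript per cell cannot be told apart, and the part of these cells in the chaperone values was not tested.

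Immediate-early genes, which are known to rise with heat shock genes when tissue is digested, were read beside them. Of 18, 7 fell (38.9%) and none rose, beside the 15.7% and 15.2% of all genes tested. Their median log2 fold change was -0.12. Their summed level was 21741, 22841 and 22423 CPM in PBS replicates 1, 2 and 3 and 17820.3, 23098 and 22736 CPM in WGP replicates 1, 2 and 3, so that 2 WGP libraries stood at the level of the PBS libraries. Jun (-0.87 ± 0.12), Egr1 (-0.69 ± 0.20) and Egr2 (-3.05 ± 0.22) were among those that fell. Fos (0.11 ± 0.11), Dusp1 (0.19 ± 0.11) and Zfp36 (-0.05 ± 0.09) did not pass. The part of handling in the chaperone values was not tested.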

How the data were processed

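Read counts per gene of 6 libraries, 3 after PBS and 3 after WGP, were used as the authors deposited them: whole numbers with no normalization, summing to 18254678 to 20346517 per library. The submitters' processing notes list FastQC 0.10.1, HTSeq 0.10.0 and the builds mm10 and GRCm38; the aligner, the annotation and the use of strand in counting were not given in the sources used here. Group and replicate number come from the sample titles.

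Symbols, positions and exon lengths came from GENCODE M21 on GRCm38, which matched 99.9% of 21965 identifiers. The WGP libraries were tested against the PBS libraries with the two-sided, robust quasi-likelihood test of edgeR 4.0.16 (R 4.3.3) after filterByExpr and TMM; p-values were adjusted over 12305 genes by Benjamini-Hochberg, with a threshold of 0.05. The SE of a log2 fold change is its size over the square root of F. The script was tested on simulated data. RPKM used the union of exons. Exons of 9 members overlap those of another counted gene. The counts of replicates differed beyond sampling noise (chi-square of 14.1 to 26.2 for each degree of freedom).

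The members were given by name, and the lists were chosen with earlier results of these data known. Values in every library are given for 20 names fixed by rule and, in each role group, for up to 3 members with the smallest p and the one with the highest level per length; of each other pathway list, up to 4 genes with the smallest p could be named. Cdc37, Cct8, Afg3l2, Eif2ak3, the single cell type markers and the immediate-early genes were named after their values were seen. Alternatives were 3 scalings, 2 filters, DESeq2 1.42.0, limma-voom (limma 3.58.1), no robust estimation, a replicate block, a Y-linked covariate, each library left out, Hspa1a and Hspa1b added up and, chosen after seeing the data, PBS replicates 1 and 3 left out. No exact test of 3 against 3 libraries can give a two-sided p below 0.1.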

Additional observations from a re-analysis of the deposited data

How the results depend on the processing

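Of the 33 members that changed, 29 kept direction and call in all 18 alternatives, 31 kept them when any 1 library was left out, and none changed direction. The exceptions were Hspa1a and Pdia3, lost without WGP replicate 3 and without PBS replicates 1 and 3, and Hspa1b and Dnajb11, lost in the latter. The latter keeps PBS replicate 2, the highest PBS library in 36 members, so a fall that stays called there says nothing of the spread among PBS libraries. Of the members that had not passed, Hspa4 turned to -0.033 with library sizes alone, and Hsf1 ran from -0.053 to 0.031 when 1 library was left out, so neither has a direction. The number of UPR genes that fell was 2 in place of 1 with library sizes alone (Atf4), with the Y-linked covariate (Xbp1) and without PBS replicates 1 and 3 (Xbp1). Over all genes, 1236 rose with library sizes alone, 1202 to 1753 rose and 1289 to 1964 fell when 1 library was left out, both lowest without PBS replicate 1, and 993 rose and 827 fell without PBS replicates 1 and 3, where the lone PBS library is assumed to vary like the WGP libraries; fewer samples enter those fits.

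Deviations of same-numbered libraries from their group means were weakly and negatively correlated (r = -0.06, -0.08 and -0.05 across genes for replicates 1, 2 and 3). With 3 libraries a group this cannot show whether a number marks a shared mouse or day, which the labels do not say. With the replicate block 1584 genes rose and 1601 fell, and 14 cytosolic, 3 mitochondrial and 13 ER chaperones fell, as without it. At this depth only Hspb1 among the members had fewer than 50 reads in a library.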
